A study of Mus musculus with 26 samples.

Results

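The 8 genes described here are Slc20a1, Slc20a2, Xpr1, Pdgfb, Pdgfrb, Myorg, Jam2 and Ank, measured in mouse choroid plexus (ChP), the secretory epithelium of the brain ventricles with its vascular stroma. They were chosen by gene symbol, as phosphate transporters, a pyrophosphate exporter and further genes of primary brain calcification, out of 55416 genes listed. The choice itself used no measured value, but it was made with earlier results of these data known, the 24 h pattern of Slc20a2 among them, so this pattern is given as a description without a test. All 8 genes had a mean of at least 1 CPM (the gene's counts scaled to the library total) in both main groups and were therefore among the 13697 genes tested.

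Primary familial brain calcification is an inherited disease in which calcium phosphate is deposited around small vessels of the basal ganglia and other brain regions. Its genes fall into a few roles: import and export of inorganic phosphate, signalling from endothelial cells to the pericytes that cover them, and the integrity of astrocytes and cell junctions. The choroid plexus secretes cerebrospinal fluid and carries the import protein encoded by Slc20a2, which makes it one of the sites where phosphate can leave this fluid.

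The main data were 24 RNA-seq libraries of ChP of the 4th ventricle from adult male C57Bl6J mice, 12 after sham surgery (Ctrl) and 12 after surgical lesion of the suprachiasmatic nucleus, the central circadian clock (SCNx). Both groups were held for a week in a cycle of 12 h light and 12 h dark before sampling. At circadian time (CT) 0 the lights were left off, and the mice then stayed in constant darkness. They were sampled every 4 h from CT0 to CT44, with 1 mouse per group and time. Thus 2 mice of a group shared each of 6 clock times one cycle apart. A further 2 libraries came from FoxJ1-ERT2-Cre+/-; Bmal1fl/fl mice (KO), adult males fed tamoxifen at 0.4 g/kg of diet, 1 at Zeitgeber time (ZT) 7 and 1 at ZT18 of a cycle of 12 h light and 12 h dark. The Foxj1 promoter drives Cre in cells with motile cilia, recombination was tested in liver, and KO tissue was laser-captured from frozen brain and sequenced with another library kit, so that genotype, kit, lighting and sampling cannot be told apart and KO levels were not compared with Ctrl levels.

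Total counts ranged from 38751162 to 47335226 in Ctrl, from 41807000 to 49527614 in SCNx, and were 17425176 and 18059213 in KO. The lowest count of any of the 8 genes in a Ctrl or SCNx library was 700, for Myorg. The 10 epithelial markers checked, Ttr and Folr1 among them, summed to between 140813 and 163464 CPM in Ctrl and between 104219 and 164271 CPM in SCNx. A pair of libraries, Ctrl CT4 and SCNx CT32, stood apart by neural transcripts. The 13 neuron and cerebellar markers, 8 of them tested, summed to 376 and 558 CPM there, against at most 65.6 in the other Ctrl and 84.8 in the other SCNx libraries. The 5 astrocyte markers summed to 708 and 825 CPM, against at most 70.8 and 121.8. Another pair, Ctrl CT16 and SCNx CT0, stood apart by 10 hepatocyte markers, which summed to 2036 and 11261 CPM. Counts were therefore also taken without each pair.

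Per kb of exon sequence, Slc20a2 had the highest level of the 8 genes in Ctrl, at 27.2 ± 5.72 CPM per kb (mean ± SD, n = 12). The length used was that of all annotated exons together, 6.22 kb for Slc20a2 and 17.9 kb for Xpr1, not that of the expressed transcripts. Before division by length Xpr1 was higher, with a mean of 262 CPM against 169 CPM for Slc20a2. Xpr1 followed at 14.7 ± 1.10, Ank at 11.3 ± 1.18, Pdgfrb at 9.93 ± 2.29 and Pdgfb at 9.0 ± 1.3 CPM per kb. Slc20a1 reached 5.52 ± 0.44, Myorg 4.14 ± 0.36 and Jam2 4.03 ± 0.39 CPM per kb. The gaps between Ank and Pdgfrb, between Pdgfrb and Pdgfb, and between Myorg and Jam2 were smaller than the SD of at least one of the neighbours. No order is read among these neighbours, and their differences were not tested. In SCNx, Slc20a2 and Xpr1 were again the highest, at 25.8 ± 1.70 and 14.1 ± 0.97 CPM per kb. All further values are CPM without division by length and are compared only within a gene.

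**Figure D1:**
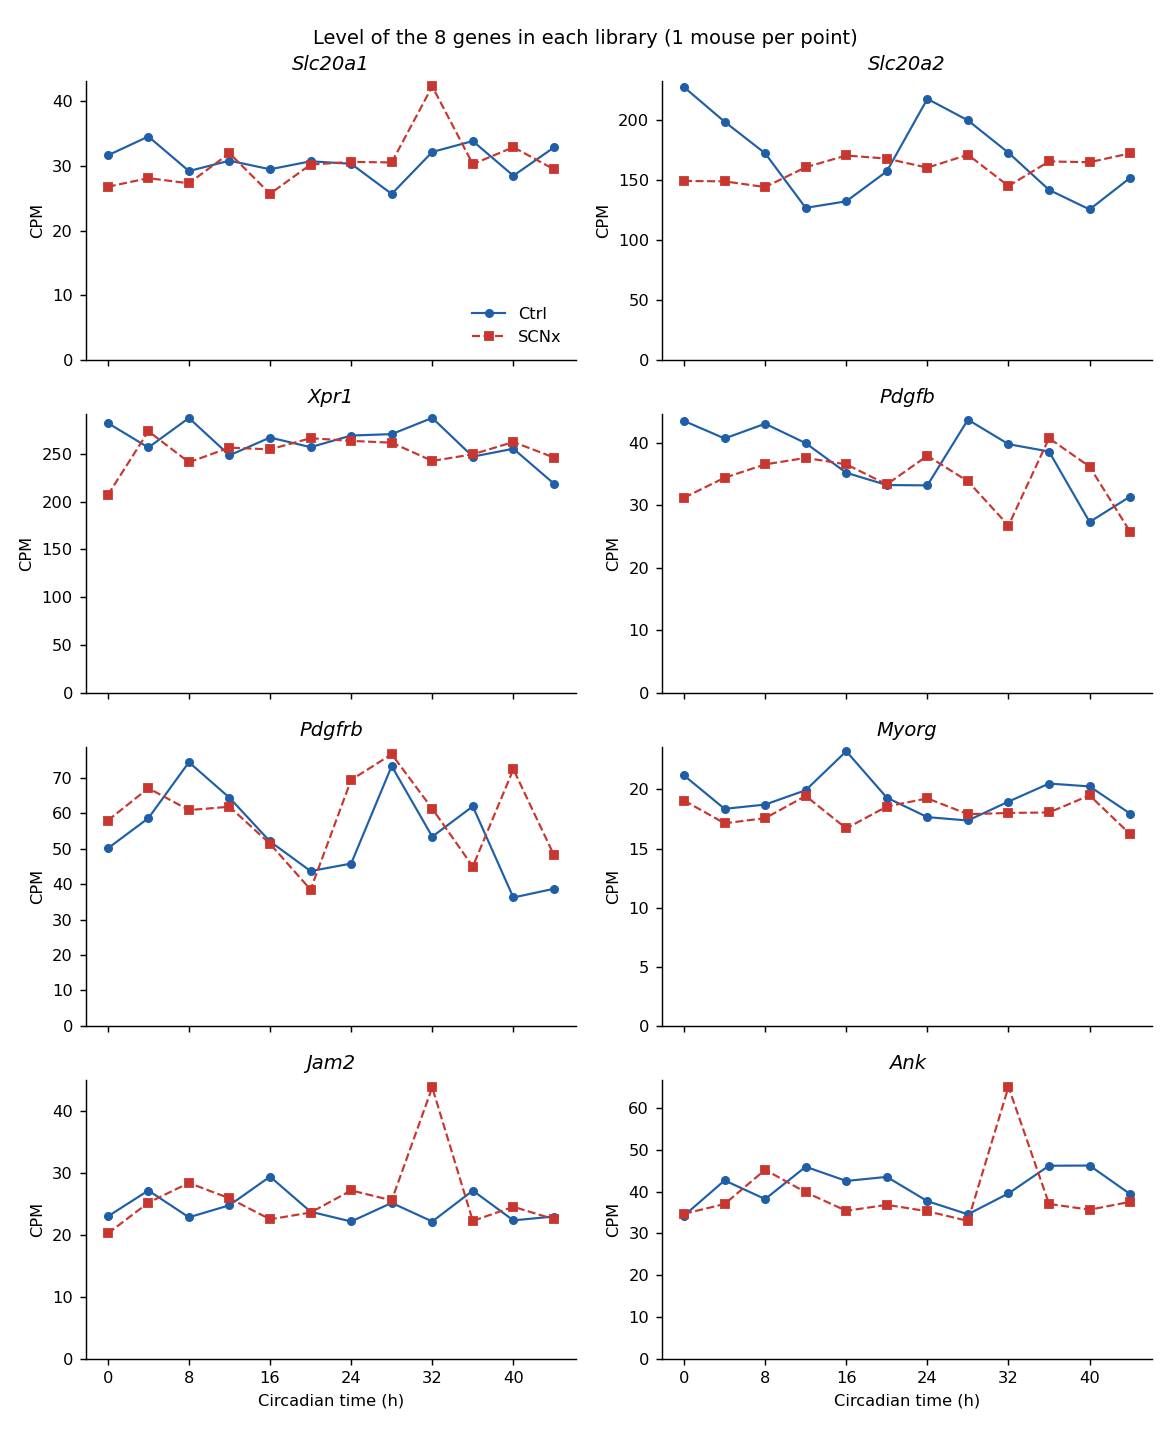
CPM (vertical axes, from 0) of the 8 genes in each of the 12 Ctrl libraries (blue circles) and 12 SCNx libraries (red squares) against circadian time in hours, with 1 mouse per point. Slc20a2 in Ctrl peaked at 227.9 CPM at CT0 and 218.1 CPM at CT24 and lay lowest at 126.9 CPM at CT12 and 125.6 CPM at CT40, whereas SCNx stayed between 144.3 and 172.5 CPM, and Slc20a1, Jam2 and Ank were each highest in SCNx CT32.

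Slc20a2, which encodes the sodium-dependent phosphate importer PiT-2 and is the gene most often mutated in primary familial brain calcification, showed a 24 h pattern in Ctrl and little in SCNx. In Ctrl it ranged from 125.6 CPM at CT40 over a median of 165.0 to 227.9 CPM at CT0, and in SCNx from 144.3 CPM at CT8 over a median of 163.0 to 172.5 CPM at CT44. By time, the pairs of Ctrl mice sampled one cycle apart had 227.9 and 218.1 CPM at CT0 and CT24, 199.0 and 200.1 at CT4 and CT28, and 172.5 and 173.0 at CT8 and CT32. They had 126.9 and 142.0 CPM at CT12 and CT36, 132.4 and 125.6 at CT16 and CT40, and 157.5 and 152.0 at CT20 and CT44.

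The level in Ctrl was thus highest at the start of the subjective day and lowest around the start and middle of the subjective night, on both days. The Ctrl libraries of CT0, CT4, CT24 and CT28 lay above every SCNx library, those of CT8 and CT32, at 172.5 and 173.0 CPM, were level with the highest SCNx library at 172.5 CPM, those of CT12, CT16, CT36 and CT40 lay below every SCNx library, and those of CT20 and CT44 lay within the SCNx range. Mice of the same clock time differed by at most 1.12-fold in Ctrl, whereas the means of the clock times differed by 1.73-fold, from 129.0 to 223.0 CPM. In SCNx, mice of the same clock time differed by up to 1.15-fold and the clock-time means by 1.18-fold, from 144.8 to 170.3 CPM.

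A 24 h cosine curve, fitted to the counts of each gene with edgeR, gave Slc20a2 a log2 amplitude of 0.40 ± 0.035 (SE, n = 12) in Ctrl with a peak at 2.34 h, which amounts to a 1.73-fold range from trough to peak. In SCNx the log2 amplitude was 0.086 ± 0.032, a 1.13-fold range. The log2 amplitude of the difference between both curves was 0.45. Across the alternatives tried, the amplitude in Ctrl stayed between 0.37 and 0.41 and that of the difference between 0.43 and 0.49. The mean level over all times was 169 ± 35.6 CPM in Ctrl (SD, n = 12) against 160 ± 10.5 CPM for SCNx, a log2 fold change of -0.076 with a 95% interval from -0.25 to 0.096 and an adjusted p of 0.818. The coefficient of variation over the 12 libraries was 21.1% in Ctrl and 6.58% in SCNx.

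**Figure D2:**
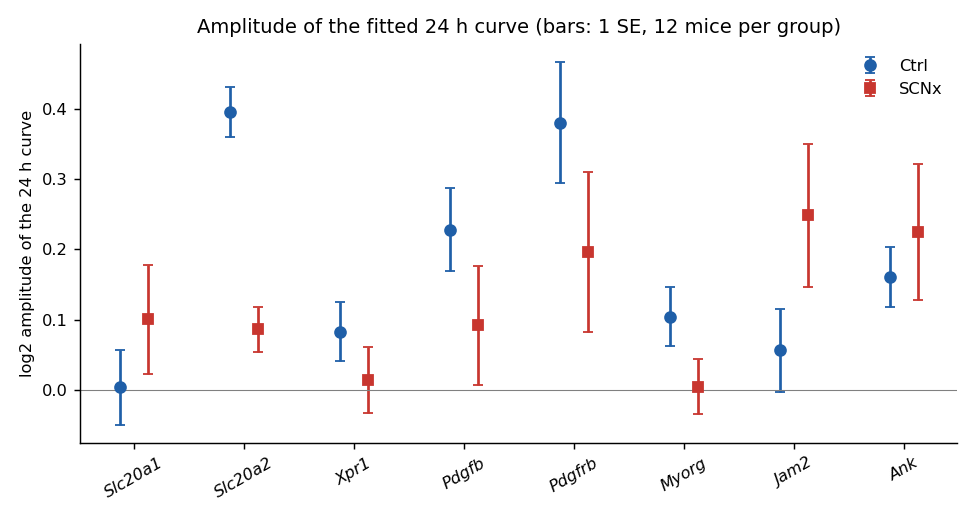
Log2 amplitude of the fitted 24 h curve (vertical axis) of each gene in Ctrl (blue circles) and SCNx (red squares), 12 mice per group, with bars of 1 SE. Slc20a2 reached 0.40 in Ctrl against 0.086 in SCNx, Pdgfrb 0.38 against 0.20, and Jam2 0.056 in Ctrl against 0.25 in SCNx.

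Of the 7 genes other than Slc20a2, 1, Pdgfrb, passed an adjusted p of 0.05 for a 24 h rhythm in Ctrl, where 10.7% of all genes tested passed. With Slc20a2, whose rhythm was known when the genes were chosen, the count was 2 of 8, and nothing is read from the part of Slc20a2 in it. In SCNx, 0 of 8 passed in edgeR's quasi-likelihood test, as did 0% of all genes. DESeq2 also called 0 of 8, where it called 3.15% of all genes. At an unadjusted p of 0.05, 2 of 8 passed in SCNx, Jam2 and Ank, where 14.8% of all genes did. The difference of the rhythm between SCNx and Ctrl passed for 0 of the 7 others in edgeR's test, where 2.12% of all genes passed. Before adjustment it also passed for 0 of the 7, where 15.1% of all genes did. In DESeq2 it passed for 0 of the 7, where 4.3% of all genes did. The count with Slc20a2 was 1 of 8, and nothing is read from it either. The median amplitude of the 8 genes was 0.13 in Ctrl and 0.096 in SCNx, beside 0.11 and 0.091 over all genes tested.

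The other phosphate genes had no such pattern. Slc20a1, which encodes the related importer PiT-1, ranged in Ctrl from 25.7 CPM at CT28 over a median of 30.8 to 34.6 CPM at CT4, and in SCNx from 25.7 CPM at CT16 over a median of 30.3 to 42.3 CPM at CT32. The groups overlapped over nearly their whole range, with SCNx CT32 above all other libraries. Its log2 amplitude in Ctrl was 0.0037 ± 0.053 (SE, n = 12; edgeR adjusted p = 0.999) and in SCNx 0.10 ± 0.078 (edgeR adjusted p = 0.605).

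Xpr1, which encodes the only known phosphate exporter of mammalian cells, ranged in Ctrl from 218.8 CPM at CT44 over a median of 262.0 to 287.5 CPM at CT8 and CT32. In SCNx it ranged from 206.8 CPM at CT0 over a median of 255.6 to 273.6 CPM at CT4. Both libraries of the same clock time that held the highest Ctrl values read 287.5 CPM, but the ratio of the highest to the lowest clock-time mean was only 1.21. The fitted amplitude was 0.083 ± 0.041 in Ctrl (edgeR adjusted p = 0.427) and 0.014 ± 0.047 in SCNx (edgeR adjusted p = 0.970). For neither transporter did the difference of the rhythm pass, with edgeR adjusted p of 0.792 for Slc20a1 and 0.637 for Xpr1.

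Ank encodes a membrane protein that exports pyrophosphate or its precursor ATP, and extracellular pyrophosphate inhibits mineral growth. Ank ranged in Ctrl from 34.3 CPM at CT0 over a median of 41.1 to 46.3 CPM at CT40, and in SCNx from 33.0 CPM at CT28 over a median of 37.0 to 65.1 CPM at CT32. The highest Ctrl values were those of CT12, CT36 and CT40, while the lowest, from 34.3 to 37.7 CPM, were those of CT0, CT24 and CT28. The fitted amplitude was 0.16 ± 0.042 with a peak at 14.1 h (edgeR adjusted p = 0.324).

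The call for Ank in Ctrl changed with the neuron-rich SCNx library. Without SCNx CT32 the edgeR adjusted p for the Ctrl rhythm was 0.0347, and without both Ctrl CT4 and SCNx CT32 it was 0.0049 with an amplitude of 0.21, so that the count of rhythmic genes was then 4 of 8, with Pdgfb as the fourth. The share of all genes called was also higher at these settings, 16.6% without SCNx CT32 and 16.5% without both libraries, against 10.7% with all. In SCNx, Ank had an amplitude of 0.22 ± 0.096 (edgeR adjusted p = 0.225), and of 0.091 without CT32. The difference of the rhythm had an edgeR adjusted p of 0.370.

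Among the vascular genes, Pdgfb, the ligand made by endothelial cells, ranged in Ctrl from 27.3 CPM at CT40 over a median of 39.2 to 43.7 CPM at CT28, and in SCNx from 25.7 CPM at CT44 over a median of 35.3 to 40.7 CPM at CT36. In Ctrl the values of CT4, CT8 and CT12 and of the same times on the next day, from 38.6 to 43.7 CPM, lay above those of CT16, CT20, CT40 and CT44, from 27.3 to 35.2 CPM, while CT0 and CT24 differed, at 43.5 and 33.2 CPM. The fitted amplitude was 0.23 ± 0.059 with a peak at 6.00 h (edgeR adjusted p = 0.0860). DESeq2 called it with an adjusted p of 0.0477, as did edgeR without SCNx CT32 (adjusted p = 0.0314) and without SCNx CT44 (adjusted p = 0.0481). In SCNx the amplitude was 0.092 ± 0.085 (edgeR adjusted p = 0.671), and the difference of the rhythm did not pass (edgeR adjusted p = 0.360).

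Pdgfrb, the receptor through which this ligand recruits pericytes, was rhythmic in Ctrl. It ranged from 36.2 CPM at CT40 over a median of 52.8 to 74.5 CPM at CT8 in Ctrl, and from 38.5 CPM at CT20 over a median of 61.1 to 76.7 CPM at CT28 in SCNx. The libraries of CT4, CT8, CT12, CT28, CT32 and CT36, from 53.4 to 74.5 CPM, lay above those of CT0, CT16, CT20, CT24, CT40 and CT44, from 36.2 to 52.1 CPM. The amplitude was 0.38 ± 0.086 with a peak at 7.48 h (edgeR adjusted p = 0.0349), a 1.69-fold range.

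This call was close to the threshold. Mice of the same clock time differed by up to 1.44-fold beside a 1.60-fold range of clock-time means, and leaving out any 1 of Ctrl CT8, CT12, CT20, CT24, CT28, CT36, CT40 and CT44 ended it, with edgeR adjusted p between 0.0590 and 0.114 and amplitudes between 0.34 and 0.39. It also ended with no filter on low counts (edgeR adjusted p = 0.0890) and with the 6 clock times as a factor (edgeR adjusted p = 0.175). In SCNx the amplitude was 0.20 ± 0.11 (edgeR adjusted p = 0.453). A loss of the rhythm in SCNx was not shown, since the difference had an edgeR adjusted p of 0.565.

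Markers of the cells that carry Pdgfrb varied over the same libraries. In Ctrl, 2 of 9 tested pericyte and smooth muscle markers were rhythmic, where 10.7% of all genes tested were. The 10 pericyte and smooth muscle markers, 9 of them tested, summed to between 170 CPM at CT24 and 439 CPM at CT16 in Ctrl. Their median sum was 294 over the libraries of CT4, CT8 and CT12 and their repeats, and 204 over the others. The highest sum fell at CT16, where Pdgfrb was at 52.1 CPM. In SCNx they summed to between 190 and 439 CPM, with medians of 308 and 271 over the same times. This split of times is the one at which Pdgfrb itself was high in Ctrl, so nothing is read from it. The 2 rhythmic markers were Kcnj8 (edgeR adjusted p = 0.0106) and Cspg4 (edgeR adjusted p = 0.0279), with peaks at 9.59 and 7.76 h. Of 5 fibroblast markers, 3 were rhythmic in Ctrl, Col1a1, Col3a1 and Col1a2, as were 3 of 10 epithelial markers. The 8 endothelial markers summed to between 155 and 371 CPM in Ctrl, highest at CT8. In edgeR's test 0 of 8 were rhythmic in Ctrl, also before adjustment, where 24.8% of all genes passed. Their part in the values of Pdgfrb and Pdgfb was not tested, and in bulk tissue fewer cells of a type and less RNA per cell cannot be told apart.

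Myorg encodes a glycosidase of the endoplasmic reticulum that astrocytes express strongly in brain. It ranged in Ctrl from 17.4 CPM at CT28 over a median of 19.1 to 23.2 CPM at CT16, and in SCNx from 16.2 CPM at CT44 over a median of 18.0 to 19.5 CPM at CT40. It was not raised in the libraries rich in astrocyte markers, with 18.4 CPM in Ctrl CT4 and 18.0 CPM in SCNx CT32. Its amplitude was 0.10 ± 0.042 in Ctrl (edgeR adjusted p = 0.241) and 0.0047 ± 0.039 in SCNx (edgeR adjusted p = 0.997).

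Jam2 encodes a junctional adhesion molecule of endothelial and other cells. In Ctrl it ranged from 22.1 CPM over a median of 23.3 to 29.4 CPM at CT16, and in SCNx from 20.2 CPM at CT0 over a median of 24.8 to 43.8 CPM at CT32. The SCNx library of CT32 lay far above the next highest, 28.4 CPM at CT8. The amplitude in Ctrl was 0.056 ± 0.059 (edgeR adjusted p = 0.891), and the 0.25 ± 0.10 in SCNx (edgeR adjusted p = 0.231) was 0.10 without CT32. The neural markers were high in the same library, and their part in the values of Jam2, Ank and Slc20a1 there was not tested.

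In mean level, 0 of the 8 genes differed between SCNx and Ctrl at an adjusted p of 0.05 in edgeR's test, as did 0% of all genes. DESeq2 called 0 of 8 as well, where it called 0.102% of all genes. At an unadjusted p of 0.05, 1 of 8 passed, Myorg, where 9.37% of all genes did. Myorg had 19.5 ± 1.68 CPM in Ctrl against 18.1 ± 1.09 CPM for SCNx (SD, n = 12), a log2 fold change of -0.10 ± 0.045 (SE; edgeR adjusted p = 0.495). The fitted values were lower in SCNx for 6 of 8 genes, where 43.5% of all genes were lower.

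The means of the other genes lay close together. Pdgfb was 37.4 ± 5.31 CPM in Ctrl and 34.2 ± 4.47 CPM in SCNx, with a log2 fold change of -0.13 and a 95% interval from -0.29 to 0.028. Pdgfrb was 54.4 ± 12.5 and 59.2 ± 11.6 CPM, with a log2 fold change of 0.12 and an interval from -0.12 to 0.36. Xpr1 was 262 ± 19.6 and 252 ± 17.4 CPM, with a log2 fold change of -0.057 and an interval from -0.14 to 0.028.

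For Slc20a1, Jam2 and Ank the fold change was smaller than its dependence on SCNx CT32. Slc20a1 had a log2 fold change of -0.014 with all libraries and -0.070 without that library, Jam2 0.090 and -0.0075, and Ank -0.054 and -0.15. Each interval included 0, and changes in level of up to the size of these intervals were not detectable with 12 mice per group.

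**Figure D3:**
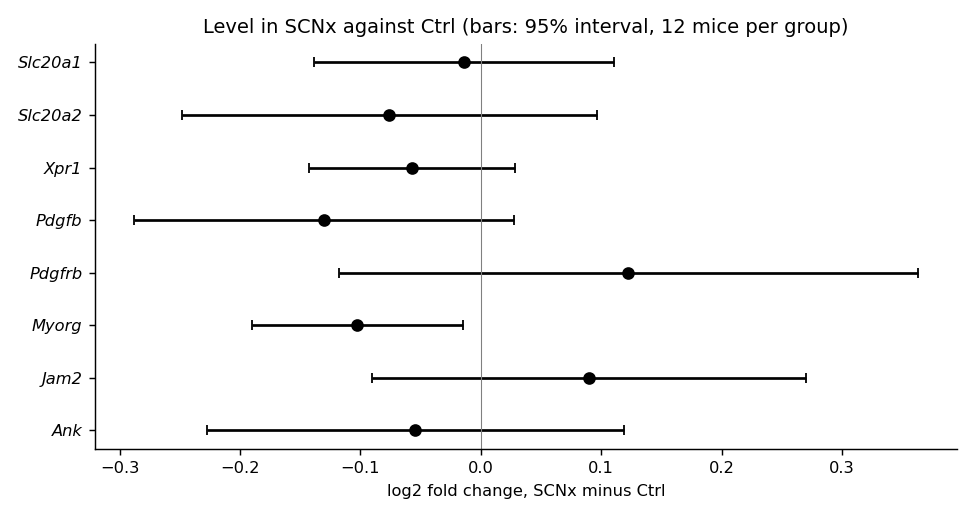
Log2 fold change of the mean level, SCNx minus Ctrl (horizontal axis), for each gene over 12 mice per group, with bars of the 95% interval. The values ran from -0.13 for Pdgfb to 0.12 for Pdgfrb, and only the interval of Myorg, at -0.10, left out 0 before adjustment over 13697 genes.

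In the KO mice, day and night were compared without a test, with 1 mouse at each time. Clock genes were examined first. Nr1d1, a repressor gene driven by BMAL1, had a log2 difference of day (CT8 and CT32) minus night (CT16, CT20, CT40 and CT44) of 4.05 in Ctrl, 0.27 in SCNx and -0.66 in KO (ZT7 minus ZT18). Dbp, another BMAL1 target, had 2.45, 1.19 and -0.21. Per2 had -0.68, 0.59 and -0.35. Arntl, which encodes BMAL1, had -2.40, -1.44 and 0.31. Of these genes, only Per2 kept the Ctrl sign in KO. Arntl read 11.1 CPM at ZT7 and 8.92 CPM at ZT18 in KO. It was counted over the whole gene, so that reads of the deleted exon were not separated.

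Slc20a2 read 77.7 CPM at ZT7 and 81.4 CPM at ZT18 in KO. The log2 difference of day minus night was -0.066 with a counting error of 0.054, beside 0.29 in Ctrl and -0.22 in SCNx. The sampled KO times lie away from the Ctrl peak and trough of Slc20a2, so that the Ctrl difference over the same hours is smaller than its full range.

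Pdgfb had the largest KO difference of the 8 genes, with 10.7 CPM at ZT7 and 17.6 CPM at ZT18 from 177 and 333 counts, a log2 difference of -0.72 beside 0.39 in Ctrl and -0.062 in SCNx. It was the only one of the 8 past 0.5 in either direction, where 18% of 13649 genes were. Markers of several cell types were lower in the same KO library: 7 of 8 endothelial markers were lower at ZT7, with a summed level of 319 CPM at ZT7 and 360 CPM at ZT18, as were 7 of 10 pericyte and smooth muscle markers (294 and 332 CPM), 4 of 5 fibroblast markers (268 and 393 CPM) and 12 of 13 neuron and cerebellar markers (328 and 416 CPM). The 10 epithelial markers summed to 90225 CPM at ZT7 and 77614 CPM at ZT18, with 2 of 10 lower at ZT7, and the 5 astrocyte markers to 796 and 831 CPM. In Ctrl CT4 and SCNx CT32, the libraries set apart above, the neuron and cerebellar markers summed to 376 and 558 CPM and the astrocyte markers to 708 and 825 CPM. Both KO libraries, made with another kit, thus held neural markers at sums near those of that pair. None of the markers in these lists was at 0 in KO. Their part in the KO values of Pdgfb, Slc20a2 and the other genes was not tested. Pdgfrb had -0.22 in KO, 0.58 in Ctrl and 0.25 in SCNx. For Jam2 and Ank the KO values of -0.22 and -0.092 stood beside -0.12 and -0.14 in Ctrl and 0.60 and 0.58 in SCNx, where CT32 is one of both day libraries. Slc20a1, Xpr1 and Myorg differed by at most 0.061 in KO. In all, 6 of 8 genes were lower at ZT7 than at ZT18 in KO, where 48.5% of genes were.

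**Figure D4:**
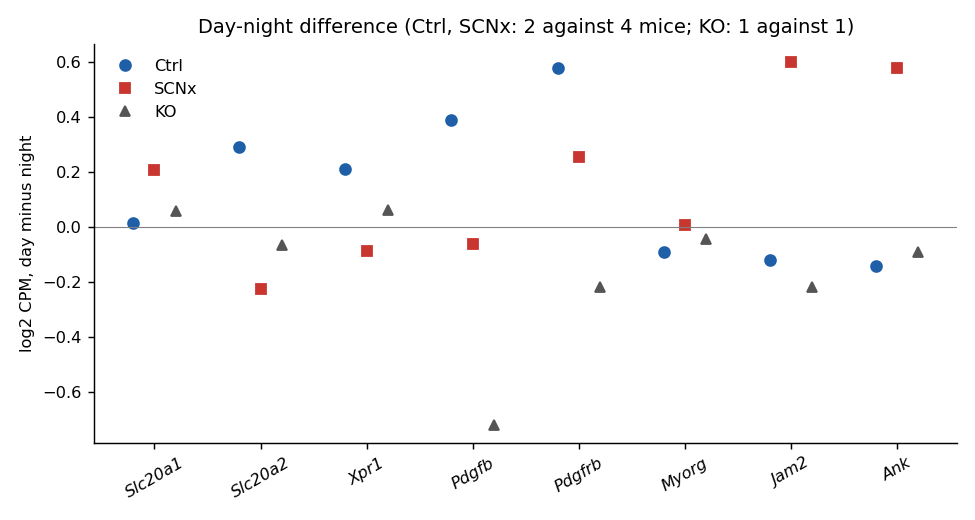
Log2 CPM of day minus night (vertical axis) for each gene in Ctrl (blue circles) and SCNx (red squares), with 2 day and 4 night mice each, and in KO (grey triangles), with 1 mouse at ZT7 and 1 at ZT18. Slc20a2 lay at 0.29 in Ctrl, -0.22 in SCNx and -0.066 in KO, and Pdgfb at -0.72 in KO was farthest from 0.

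The neighbouring pathways were read through lists of related genes. In edgeR's test, 10.7% of all genes tested were rhythmic in Ctrl and 0% in SCNx, 2.12% differed in rhythm and 0% in level. Before adjustment these shares were 24.8%, 14.8%, 15.1% and 9.37%. Of 17 genes of phosphate transport, sensing and hormonal control, 6 were tested, Slc25a3 and Fgfr1 among them, and 0 were called in any comparison by edgeR, also before adjustment. Kl, which encodes the FGF23 co-receptor klotho, was the most abundant with 4485 ± 232 CPM in Ctrl against 4205 ± 401 CPM for SCNx (SD, n = 12), a log2 fold change of -0.093 ± 0.049 (edgeR adjusted p = 0.568). Of 6 inositol pyrophosphate kinases and Kidins220, genes linked to the control of XPR1, 5 were tested and 0 called by edgeR, with 1 rhythmic in Ctrl and 1 differing in rhythm at an unadjusted p of 0.05. Of 6 partners of Jam2 at cell junctions, 0 were called by edgeR and 1 passed before adjustment, Ocln (occludin), with a log2 fold change in level of -0.11 ± 0.045 (edgeR p = 0.0245 unadjusted).

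Of 16 genes of pyrophosphate, extracellular ATP and mineral inhibition, 15 were tested, and Nt5e and Ahsg were rhythmic in Ctrl and differed in rhythm between the groups. Of all genes tested, 10.7% were rhythmic in Ctrl and 2.12% differed in rhythm. Ahsg, a liver gene, was at 151.8 CPM in Ctrl CT16 and 747 CPM in SCNx CT0 but at most 2.25 CPM elsewhere, the same libraries that held hepatocyte transcripts, and it fell below the level tested without them. Nt5e encodes CD73, which turns extracellular AMP into adenosine and phosphate and whose loss causes arterial calcification. In level, 0 of 15 were called by edgeR, and 3 had an unadjusted p under 0.05, all lower in SCNx: Phospho1, a phosphatase of mineralizing cells, with a log2 fold change of -0.25 ± 0.097 (edgeR p = 0.0157 unadjusted, 0.457 adjusted), Ggcx, the gamma-glutamyl carboxylase, with -0.13 ± 0.049 (edgeR p = 0.0158 unadjusted, 0.457 adjusted), and Mgp, which encodes the mineral inhibitor matrix Gla protein, with -0.23 ± 0.10 (edgeR p = 0.0272 unadjusted, 0.495 adjusted).

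Nt5e followed nearly the same course as Slc20a2. In Ctrl it ranged from 25.1 CPM at CT40 over a median of 36.6 to 55.0 CPM at CT0, and in SCNx from 27.1 CPM at CT32 over a median of 40.1 to 48.7 CPM at CT16. The highest Ctrl libraries were CT0 and CT24, with 55.0 and 49.6 CPM, and CT12, CT36 and CT40 were the lowest, from 25.1 to 26.0 CPM. Its amplitude was 0.49 ± 0.060 with a peak at 2.14 h (edgeR adjusted p = 0.000177) in Ctrl and 0.15 ± 0.078 in SCNx (edgeR adjusted p = 0.418). The difference of the rhythm passed with an edgeR adjusted p of 0.0066, and with 0.0026 and 0.0068 without the neuron-rich and the hepatocyte-rich pair of libraries.

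**Figure D5:**
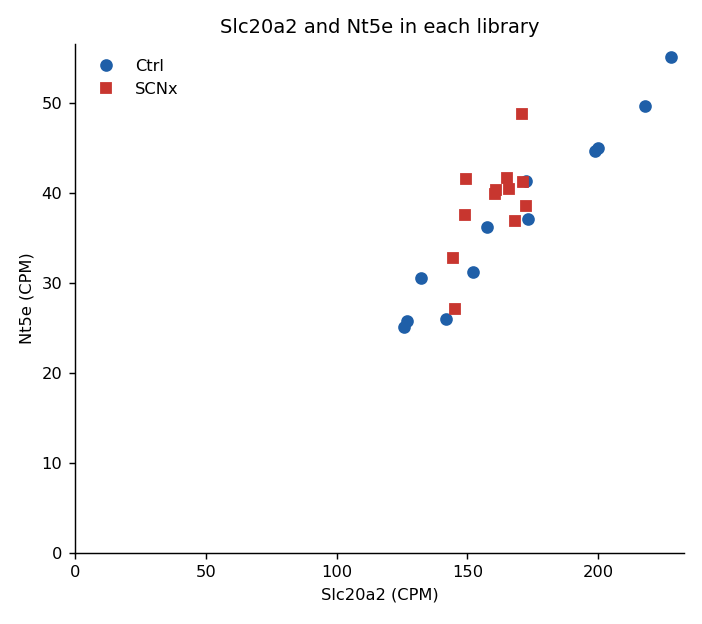
CPM of Nt5e (vertical axis) against CPM of Slc20a2 (horizontal axis), both from 0, in each of the 12 Ctrl (blue circles) and 12 SCNx (red squares) libraries. The Ctrl libraries spread along one line from 125.6 and 25.1 CPM at CT40 to 227.9 and 55.0 CPM at CT0, whereas those of SCNx lay within 144.3 to 172.5 CPM of Slc20a2.

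Among all genes tested, Nt5e also had the pattern most like that of Slc20a2 by Pearson's r of log2 CPM over the 12 Ctrl libraries, with r = 0.97, and r = 0.66 over the 12 SCNx libraries. Acot1 (r = 0.96) and Acot2 (r = 0.94), which encode acyl-CoA thioesterases, Hk1 (r = 0.96), which encodes a hexokinase, and Gabra4 (r = 0.94), which encodes a GABA-A receptor subunit, came next. The Ctrl peaks of these 5 genes lay between 2.14 and 3.29 h. These r describe likeness across libraries that share the sampling times, without a test, and Acot1 and Acot2 are close paralogs whose reads may have been split between them.

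Of the PDGF genes beside the pair already described, 1 of 4 was called. The call was for the rhythm in Ctrl and for its difference, where 10.7% and 2.12% of all genes were called. Pdgfra, the receptor of fibroblasts and oligodendrocyte precursors, ranged from 83.8 CPM at CT24 over a median of 120.6 to 158.0 CPM at CT36 in Ctrl, and from 90.6 CPM at CT36 over a median of 126.9 to 154.4 CPM at CT28 in SCNx. The Ctrl values were highest at CT12 and CT36 and lowest at CT0 and CT24, opposite to Slc20a2. The amplitude was 0.35 ± 0.056 with a peak at 12.2 h in Ctrl (edgeR adjusted p = 0.0031) and 0.15 ± 0.073 in SCNx, and the difference of the rhythm passed (edgeR adjusted p = 0.0142). Pdgfa had a log2 fold change of -0.089 ± 0.039 in SCNx (edgeR p = 0.0335 unadjusted, 0.495 adjusted).

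Of 13 other genes of inherited brain calcification, all were tested, and 3 were rhythmic in Ctrl, where 10.7% of all genes tested were. In edgeR's test 0 differed in rhythm between the groups, where 2.12% of all genes did, and 3 before adjustment, where 15.1% did. Naa60, which encodes an acetyltransferase of the Golgi, had an amplitude of 0.22 ± 0.037 and a peak at 14.2 h (edgeR adjusted p = 0.0090). Rnaseh2b, a subunit of the ribonuclease that removes RNA from DNA, had 0.28 ± 0.055 and a peak at 13.1 h (edgeR adjusted p = 0.0283), and Ifih1, the cytosolic RNA sensor MDA5, had 0.19 ± 0.050 and a peak at 10.4 h (edgeR adjusted p = 0.0229). All 3 kept the call without either pair of libraries. For Naa60 the difference of the rhythm had an edgeR adjusted p of 0.136 with all libraries and 0.0397 without the neuron-rich pair. Samhd1, a nucleotide hydrolase, had the smallest p in level, with a log2 fold change of 0.18 ± 0.047 in SCNx (edgeR p = 0.00096 unadjusted, 0.366 adjusted).

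All 16 core clock genes were rhythmic in Ctrl, 0 in SCNx by edgeR (9 before adjustment), and 14 differed in rhythm. Arntl had an amplitude of 2.23 ± 0.080 in Ctrl with a peak at 22.9 h, Nr1d1 of 2.45 ± 0.20 at 7.55 h, Dbp of 2.04 ± 0.053 at 10.2 h and Per2 of 1.30 ± 0.15 at 14.8 h. The peak of Slc20a2 at 2.34 h thus lay between those of Arntl and Nr1d1.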

How the data were processed

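Choroid plexus RNA-seq of 12 Ctrl, 12 SCNx and 2 KO mice was used. The authors trimmed reads with cutadapt 3.4, aligned them with STAR and deposited the estimated counts per gene made with Salmon 1.9.0, unnormalized, per the labels and the methods. The counts were rounded to whole numbers here. Genes whose mean CPM reached 1 in Ctrl and also in SCNx were tested, with TMM factors (0.9545 to 1.082), in edgeR 4.0.16 (R 4.3.3) by the quasi-likelihood test with Benjamini-Hochberg adjustment over 13697 genes: SCNx against Ctrl, a cosine and sine of 24 h in each group, and the difference of both curves. Log2 CPM used a prior count of 1. Total counts are estimated reads, not molecules. Each time point was 1 mouse, so the errors of an amplitude are scatter around the curve. The errors of a level change and the SDs are spread over all times of a group and include any 24 h pattern. Both groups were fitted together in edgeR and shared 1 estimate of the spread per gene. The SE of an amplitude came from a separate curve through the log2 CPM of that group's 12 libraries. The code was tested on simulated data. Exon lengths came from GENCODE M21, another build than the counts, so no coordinates are given.

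The members and gene lists were chosen with earlier results of these data known. Besides the 8 members, list genes with an adjusted p below 0.05 are named, otherwise up to 3 of smallest p, of the clock list 4 genes (Arntl, Nr1d1, Dbp and Per2), and the 5 genes most like Slc20a2. Kl, Slc25a3, Fgfr1, Kidins220, Cry1 and the markers were picked for mention after their values were seen. Alternatives were DESeq2 1.42.0 and its size factors, limma 3.58.1, other filters (mean CPM of 5, none), clock time as a factor or block, and each mouse left out.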

Additional observations from a re-analysis of the deposited data

Results flagged for a closer look

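Slc20a2 was flagged by a rule on the difference of the 24 h rhythm between SCNx and Ctrl. The log2 amplitude of the difference was 0.45, with 0.40 ± 0.035 in Ctrl and 0.086 ± 0.032 in SCNx (SE, n = 12). Since this pattern was known when the genes were chosen, the flag supports nothing and the pattern is given as a value only. No formal outlier test was run within groups of 12 mice; libraries that stood apart by marker levels are given above, and each mouse was left out in turn.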

How the results depend on the processing

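Of 1056 single results under an alternative, 1035 kept direction and side of the threshold, 10 lost and 6 gained a call, and 5 changed sign. The count of rhythmic members in Ctrl was 2; it was 1 with no filter on low counts and 1 with 6 clock times as a factor, 4 without Ctrl CT4 and SCNx CT32 (chosen after seeing the data), and between 1 and 4 with each mouse left out. The share of all genes called, 10.7% as reported, was 2.03%, 4.26% and 16.5% in the first 3 settings, and 16.6% without SCNx CT32, which gave the count of 4. Leaving out each mouse gave 0 members in level and 0 in the SCNx rhythm. It gave 1 in the difference, Slc20a2, which was also among the rhythmic members in Ctrl at each setting. Its pattern was known when the genes were chosen, so nothing is read from its part in these counts. With each mouse left out, the log2 level change of Slc20a1 ran from -0.070 to 0.0067, and was 0.0010 without Ctrl CT4, 0.0019 without SCNx CT0, 0.00012 without SCNx CT8 and 0.0067 without SCNx CT16; that of Jam2 ran from -0.0075 to 0.12, the lowest without SCNx CT32. The cause was not tested.

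Ctrl and SCNx mice of the same time share only the time, not a pairing: 5 of 12 pairs correlated above 0.1 (range -0.44 to 0.34). With time as a replicate block, 0 members differed in level, as without it, and Myorg had a log2 change of -0.10. The rhythm differed for 1 member, Slc20a2, as without the block, and nothing is read from it since its pattern was known beforehand. Over all genes, the calls for the difference moved from 291 to 98 under the block, 78 with clock times as a factor, 174 with no filter and 589 with DESeq2. Those for the Ctrl rhythm moved from 1459 to 583, 818 and 2053 with clock times as a factor, no filter and DESeq2, and DESeq2 called 432 for the SCNx rhythm and 14 for level. Single mice moved these counts too: without Ctrl CT44 the Ctrl rhythm had 918 calls and without SCNx CT32 it had 2249, while the difference had between 163 and 192 calls without any 1 of Ctrl CT12, CT20, CT24 and CT44 and SCNx CT12 and CT16, and 466 without SCNx CT32.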
